A study of Sus scrofa with 4 samples.

Results

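SOX and FOX genes encode 2 large families of transcription factors, and their levels were examined here in porcine pancreatic ductal organoids (PPDO) and in the cells of primary pig pancreas. The set was chosen with earlier results of these data known, and its genes were taken by name alone. They are the 54 genes of 30282 in the annotation that carry a SOX or FOX name with its number there, without SOX9, and they comprise 13 SOX and 41 FOX genes. FOXO3 is listed in that annotation by its identifier (ENSSSCG00000004387) without a name and so is not among them. No gene there carries the name SOX1, SOX2, SOX4, SOX12 or SOX15, and these were not examined. The set is thus not the whole of either family. PPDO are epithelial organoids grown in a matrix from ducts of the pig pancreas, in medium with WNT, R-spondin, noggin and growth factors. Single-cell RNA was sequenced from 2 PPDO libraries, from 2 lines at different passage. By the study's account both lines were past its early passages, and the majority of their cells had left the mature duct state. Early-passage PPDO have no single-cell library here, so differences from primary cells describe these later cultures only. The study calls the lines late postnatal and adult in its results. The line names and age ranges in its methods would place both in the late postnatal range, and the labels do not settle it. The other 2 libraries were made from 2 German landrace pancreata of late postnatal age, a wild type and one with INS-eGFP, an eGFP transgene driven by the porcine insulin promoter. Hand-picked ducts were used for the first pancreas, and duct-stained, eGFP-positive and unselected cells were sorted and pooled for the second, so class sizes do not describe the organ. Group and culture coincide, and the part of the medium in a difference from primary cells cannot be told apart from that of the cells.

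SOX proteins bind DNA through an HMG box and are grouped by sequence. SOXF genes (SOX7, SOX17, SOX18) are best known from blood and lymph vessels, SOXE genes (SOX8, SOX9, SOX10) from neural crest, glia and, for SOX9, from ducts, and SOXD genes (SOX5, SOX6, SOX13) lack a transactivation domain and often act with other SOX proteins. FOX proteins share the forkhead domain. FOXA proteins open closed chromatin and act in liver and pancreas, FOXO proteins are kept out of the nucleus by insulin and AKT signalling, FOXP proteins are repressors that form dimers, FOXM1 drives genes of mitosis, and FOXC, FOXF and FOXS1 mark vessels and mesenchyme.

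The libraries had between 6999 and 9853 barcodes and between 87043513 and 366263520 unique molecular identifiers (UMIs, counted molecules), and 10 to 23 barcodes were shared by each pair of libraries. After filtering, 8885 and 7337 cells of PPDO 1 and 2 and 5676 and 4274 cells of primary pancreas 1 and 2 remained. Cells were clustered without any SOX or FOX gene, and clusters were named by other markers, so that no gene of the set had a part in naming. Named classes with at least 20 cells in both primary libraries were ductal-like (2312 and 1209 cells), acinar-like (257 and 57), endocrine-like (101 and 2213), endothelial-like (1072 and 265), mural-like (441 and 41), lymphocyte-like (254 and 74) and myeloid-like (458 and 65). Fibroblast-like cells (312 and 7) and Schwann-like cells (345 and 1) came almost wholly from primary pancreas 1. The ductal-like and endothelial-like classes were made of different clusters in both libraries: the largest ductal-like cluster of primary pancreas 1, led by OSGIN1 and EREG, held 1177 cells and none of primary pancreas 2, where another cluster held 1108, and the largest endothelial-like clusters held 720 and 193 cells. The acinar-like class held a cluster of 186 and 57 cells and one of 71 cells from primary pancreas 1 only. With doublets kept or at Leiden resolution 1.0, 149 cells of primary pancreas 1, with SPHKAP, ADAD1 and RBPJL among their leading genes, formed an unnamed cluster and the acinar-like class held 109 and 58 or 108 and 56 cells. An unnamed cluster of 342 cells of primary pancreas 2 had the same 3 genes among its leading genes, so the acinar-like classes of both libraries may hold different cells. Ductal-like cells had median depths of 17310.5 and 20468 UMIs, against 34176 and 34459 UMIs in PPDO, so rare transcripts were measured with more precision in PPDO. Levels below are UMIs per 1000000 UMIs of a class in a library (CPM), given for library 1 and then library 2. Shares of cells are those with at least 1 UMI after thinning each cell to 3000 UMIs, which left out 61 and 10 PPDO cells and 589 cells of primary pancreas 1. A share of 0 allows up to 3 cells of those thinned.

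Of the 54 genes, 20 reached a mean of 20 CPM in PPDO or in a primary class present in both libraries, and 9 of them did so in PPDO. The other 34 had means of at most 16.9 CPM in PPDO and in each primary class present in both libraries. This bound does not cover single libraries, where FOXF1 lay above it, or Schwann-like and fibroblast-like cells, where FOXD3 and FOXD1 did. Of the 34, 5 had fewer than 10 UMIs in all cells kept, and FOXE3 had none. Among the 20 genes, the primary class with the highest level was the same in both libraries for 16. The extensions that the annotation adds past 3' ends carried a median of 2.07% of the UMIs of the 20 genes, and at most 14.9%, but nearly all UMIs of several of the rarer genes. Genes of the other 34 that are named below were chosen after their values were seen.

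**Figure D1:**
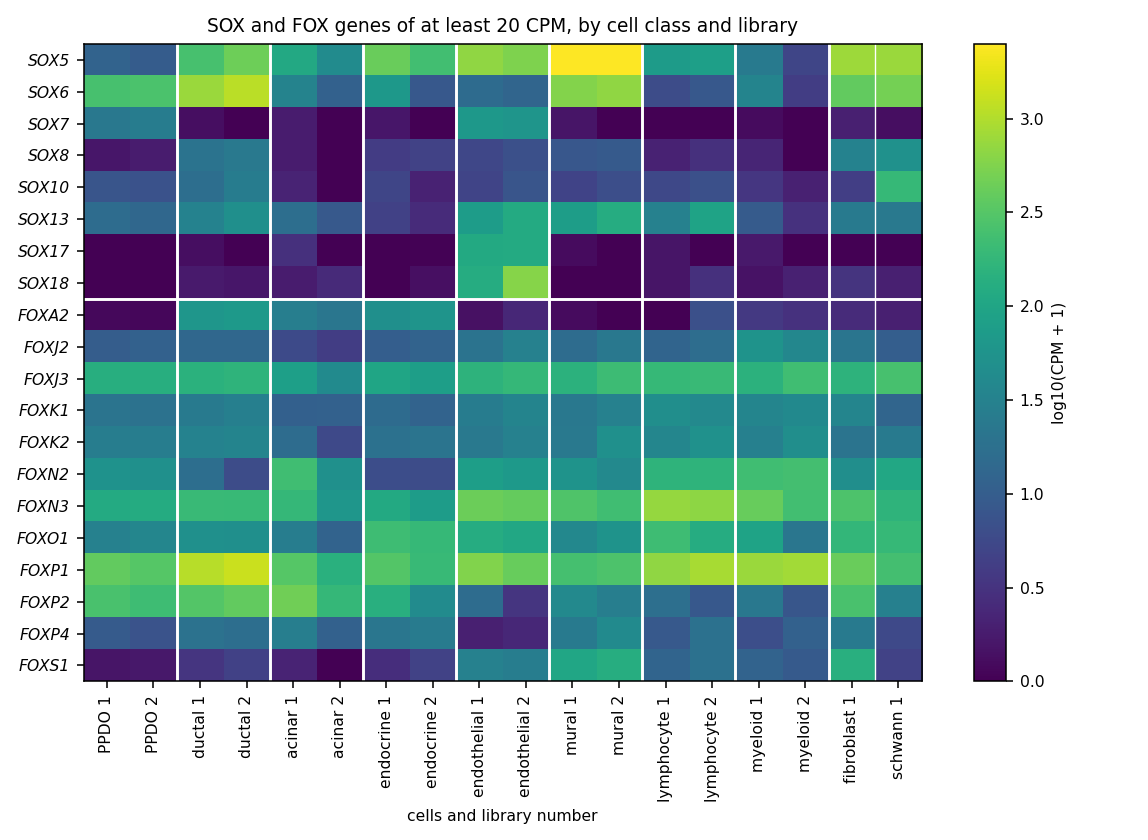
Heat map of log10(CPM + 1) for the 20 SOX and FOX genes that reached a mean of 20 CPM in PPDO or in a primary class present in both libraries. Each cell class and library has a column, with the Schwann-like and fibroblast-like cells of primary pancreas 1 at the right. SOX17 and SOX18 were high in endothelial-like cells and near 0 in the other classes shown, SOX7 was present in endothelial-like cells and in PPDO, SOX5 was highest in mural-like cells, and FOXJ3, FOXK1 and FOXK2 were found in every class.

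The SOXF genes were endothelial in primary pancreas. SOX17 (ENSSSCG00000006256, chr4:76854218-76857143 in RefSeq on Sscrofa11.1) had 117 and 118 CPM in endothelial-like cells and at most 1.99 CPM in any other tested class, which leaves the groups far apart. SOX18 (ENSSSCG00000037865, chr17:62869868-62871758), which acts in vessel and lymphatic growth, had 127 and 608 CPM there and at most 1.92 CPM in the other tested classes. SOX7 (ENSSSCG00000031889, chr14:13938381-13945324) had 63.5 and 58.3 CPM there and at most 0.794 CPM in the other tested classes. Against the mean of the other classes all 3 rose in edgeR (SOX17 8.33 ± 0.38 SE at edgeR FDR 2.0e-11; SOX18 9.29 ± 0.36 SE at edgeR FDR 1.1e-11; SOX7 8.71 ± 0.48 SE at edgeR FDR 4.6e-10, as log2 differences). Most other classes had 0 or a few UMIs of these genes, and the fitted sizes then depend on the prior count. SOX17 was found in 25.8% and 24.5% of endothelial-like cells, SOX18 in 29.8% and 70.2% and SOX7 in 15.4% and 13.96%. In myeloid-like cells, at median depths of 7630.5 and 14721 UMIs against 9209 and 9808 UMIs in endothelial-like cells, SOX17 was found in 0.254% and 0% of cells and SOX18 and SOX7 in none, which allows up to 0.763% and 4.62%. SOX18 overlaps TCEA2 in the RefSeq annotation, and reads of the pair may not be told apart.

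SOX18 differed between the primary libraries more than SOX17 and SOX7 did. In a cluster of 204 and 47 cells led by TLL1 and SELP, SOX18 had 108 and 652 CPM, and in a cluster of 148 and 21 cells led by SEMA3G, with GJA5, it had 162 and 1161 CPM, so the difference was present in both clusters with at least 20 cells in each library. In the cluster of 720 and 4 cells it had 125 and 88.4 CPM, the latter from 5 UMIs. SOX17 had 232 and 372 CPM in the SEMA3G and GJA5 cluster, whose leading genes are known from arteries, and 53.4 and 51.4 CPM in the SELP cluster, a gene of venous endothelium. In the largest endothelial-like cluster of each library it had 112 and 109 CPM. SOX17 was therefore higher in the SEMA3G and GJA5 cluster in both libraries, which was not tested and was chosen after the values were seen.

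In PPDO only 1 SOXF gene was present at more than a trace. SOX7 had 21.8 and 25.8 CPM in PPDO and 0.319 and 0 CPM in ductal-like cells, 13311 UMIs against 14, and both PPDO libraries lay above both primary ones. It was higher in PPDO (edgeR log2 fold change 7.38 ± 0.92 SE at FDR 0.0046). SOX7 was found in 5.04% and 6.74% of PPDO cells and 0.144% and 0% of ductal-like cells, and in none of the lymphocyte-like cells, at 5759 and 5485.5 UMIs, which allows up to 1.26% and 4.05%. Without thinning the shares were 39.5% and 47.01% in PPDO and 0.606% and 0% in ductal-like cells. The 3' extensions held 8.61% of SOX7 UMIs. SOX17 had 1 UMI in all PPDO cells kept and SOX18 had 9, at 0.0199 and 0.0114 CPM. SOX18 was lower in PPDO than in ductal-like cells (edgeR log2 fold change -4.91 ± 0.51 SE at FDR 0.0029), where it had 0.751 and 0.589 CPM. The share of cells with SOX18 was 0.192% and 0.0827% in ductal-like cells and 0.4% and 1.75% in acinar-like cells, 1 cell in each library. It was 0% in mural-like and myeloid-like cells. Whether background RNA made up the ductal-like counts was not tested. With only the ductal-like PPDO cells SOX18 was not called (-2.88 at edgeR FDR 0.093).

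**Figure D2:**
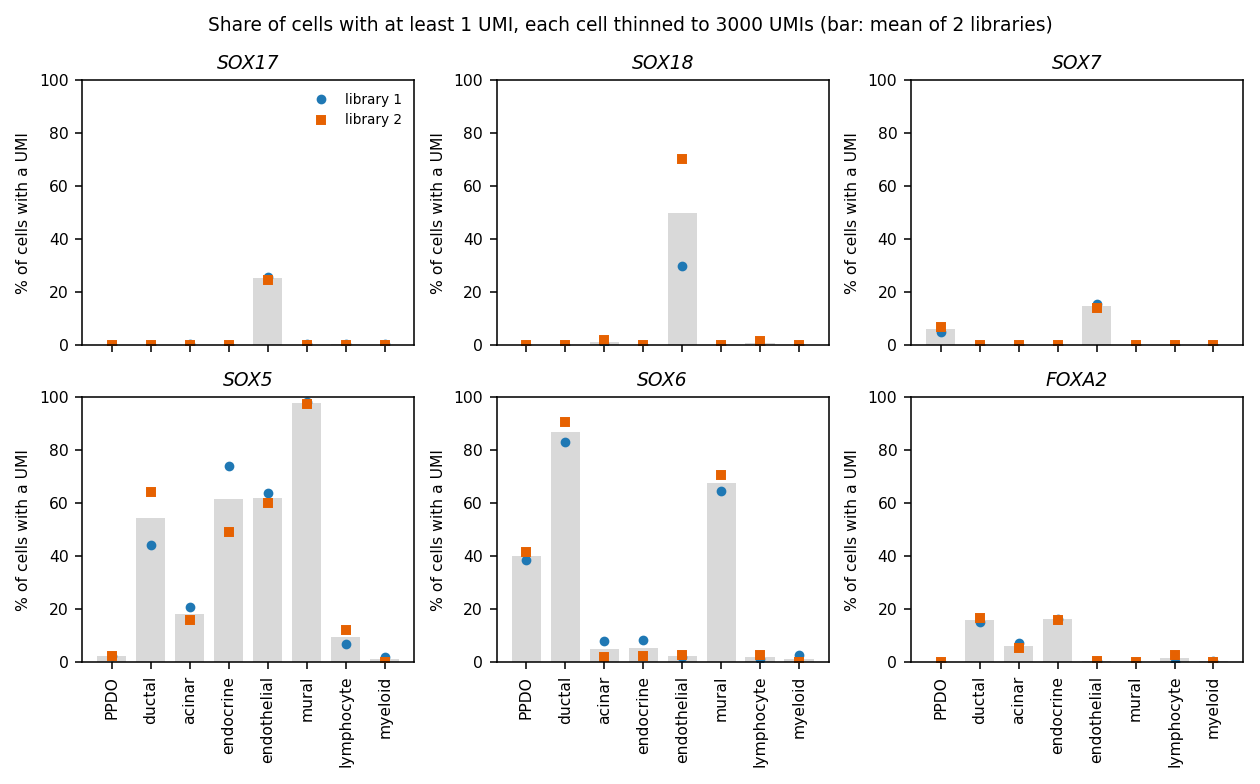
Share of cells with at least 1 UMI, in percent, for SOX17, SOX18, SOX7, SOX5, SOX6 and FOXA2 in PPDO and 7 primary classes, with each cell thinned to 3000 UMIs. Points are libraries and bars their mean, and SOX7 was the only SOXF gene of the 3 with a share above 1% in PPDO.

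The 3 SOXD genes differed in their classes. SOX5 (ENSSSCG00000000567, chr5:49159950-50166463) had 2459 and 2499.9 CPM in mural-like cells, found in 98.3% and 97.6% of them, and rose there against the mean of the other classes (edgeR log2 difference 3.72 ± 0.31 SE at FDR 3.8e-08). It was also called higher in endothelial-like cells with 692 and 549.6 CPM (1.58 ± 0.34 SE at edgeR FDR 0.0014) and endocrine-like cells with 419.9 and 232 CPM (1.26 ± 0.35 SE at edgeR FDR 0.0079). It was not called in ductal-like cells with 255 and 442 CPM (0.58 ± 0.37 SE at edgeR FDR 0.27), and it had 24.3 and 4.11 CPM in myeloid-like cells. In primary pancreas 1 alone, it had 794 CPM in fibroblast-like cells and, by cluster, 1008 and 411 CPM in Schwann-like cells. In PPDO it had only 11.1 and 8.84 CPM, below both primary duct values (edgeR log2 fold change -4.65 ± 0.27 SE at FDR 8.2e-04), with shares of 2.43% and 2.402% against 44.4% and 64.4% of ductal-like and 2.04% and 0% of myeloid-like cells (unthinned, 11.8% and 9.94% in PPDO and 73.3% and 92.6% in ductal-like cells). SOX6 (ENSSSCG00000034191, chr2:42447391-43068824) was highest in ductal-like cells with 769 and 1122 CPM (edgeR log2 difference 4.87 ± 0.39 SE at FDR 2.8e-08) and next in mural-like cells with 579 and 674 CPM (3.98 ± 0.40 SE at edgeR FDR 4.7e-07). Endothelial-like and lymphocyte-like cells had at most 14.6 CPM of it. In primary pancreas 1 alone, SOX6 had 377 CPM in fibroblast-like cells and, by cluster, 615 and 293 CPM in Schwann-like cells. PPDO had 254 and 269 CPM, in 38.4% and 41.5% of cells against 82.9% and 90.5% of ductal-like cells (unthinned, 74.8% and 81.1% and 90.5% and 98.5%), and lay below ductal-like cells (edgeR log2 fold change -1.37 ± 0.17 SE at FDR 0.0045). SOX13 (ENSSSCG00000015277, chr9:64745762-64780942) had 76.8 and 126 CPM in mural-like, 75.2 and 118 CPM in endothelial-like and 30.97 and 47.8 CPM in ductal-like cells, while PPDO had 15.1 and 12.5 CPM. It was called higher in endothelial-like (2.10 ± 0.30 SE at edgeR FDR 3.0e-05), mural-like (1.95 ± 0.33 SE at edgeR FDR 2.2e-04) and lymphocyte-like cells (1.04 ± 0.37 SE at edgeR FDR 0.039) and not in ductal-like cells (0.48 ± 0.33 SE at edgeR FDR 0.30).

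SOXE genes were found in ductal-like, Schwann-like and, for SOX8, fibroblast-like cells. SOX8 (ENSSSCG00000037970, chr3:40825151-40830085) had 18.5 and 22.5 CPM in ductal-like cells and rose there (edgeR log2 difference 2.83 ± 0.34 SE at FDR 3.4e-06), as did SOX10 (ENSSSCG00000039315, chr5:9890439-9901746) with 16.1 and 26 CPM (edgeR log2 difference 2.61 ± 0.36 SE at FDR 1.5e-05). Both were also in Schwann-like cells of primary pancreas 1, whose lineage needs SOX10, with 50.7 CPM of SOX8 and 186 CPM of SOX10. SOX8 had 30.9 CPM in the fibroblast-like cells of primary pancreas 1, in 7.96% of them, above its 4.95% and 7.03% of ductal-like cells. SOX10 was found in 42.5% of those Schwann-like cells, 4.37% and 8.11% of ductal-like and 1.02% and 0% of myeloid-like cells. In PPDO, SOX8 fell to 0.608 and 0.793 CPM (edgeR log2 fold change -4.40 ± 0.27 SE at FDR 9.0e-04) and SOX10 to 6.801 and 6.22 CPM (edgeR log2 fold change -1.21 ± 0.22 SE at FDR 0.013). The SOX10 call was lost when PPDO 1 or PPDO 2 was left out (edgeR FDR 0.072 and 0.081). FOXD3, another gene of the neural crest lineage, had 86.2 CPM in the same Schwann-like cells and at most 2.96 CPM in any other class of at least 20 cells. SOX21, SOX11 and SOX3 had 16.1, 9.54 and 1.97 CPM there. With 1 library these values have no replicate.

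Among FOX genes of the epithelium, FOXA2 (ENSSSCG00000007114, chr17:29997397-30001704), a pioneer factor of endoderm, had 60.9 and 65.9 CPM in ductal-like, 48.5 and 56.3 CPM in endocrine-like and 27 and 20.4 CPM in acinar-like cells. It was called higher in each of these 3 classes against the mean of the others (3.91 ± 0.33 SE at edgeR FDR 4.9e-08, 4.53 ± 0.34 SE at edgeR FDR 1.1e-08 and 4.08 ± 0.39 SE at edgeR FDR 3.6e-07). The order of these differences was not that of the CPM, which were lowest in acinar-like cells. The part of TMM scaling in this was not tested. FOXA2 was detected in 15.04% and 16.7% of ductal-like cells (52.9% and 67.4% without thinning) and in none of the mural-like cells, at 7508 and 8102 UMIs per cell, which allows up to 0.733% and 7.32%. PPDO had 0.186 and 0.133 CPM, in 0.0567% and 0.0273% of cells, the largest fall among the 36 genes tested (edgeR log2 fold change -8.17 ± 0.25 SE at FDR 3.3e-04). FOXA3 was low, with 5.56 and 10.2 CPM in acinar-like, 4.73 and 4.6 CPM in endocrine-like and 0.691 and 0.503 CPM in PPDO. FOXA1 had 2.25 and 0.628 CPM in ductal-like cells and 2.07 and 0.705 CPM in PPDO, with the libraries of both groups overlapping. FOXP2 (ENSSSCG00000016639, chr18:31335102-31890523), a forkhead repressor, had 306 and 383 CPM in ductal-like, 454 and 182 CPM in acinar-like and 261 and 217 CPM in PPDO cells, against 14.9 and 2.39 CPM in endothelial-like cells. It was not confined to epithelium, with 263 CPM in the fibroblast-like cells of primary pancreas 1, in 39.8% of them. It rose in acinar-like (edgeR log2 difference 4.58 ± 0.29 SE at FDR 1.4e-09) and ductal-like cells (3.21 ± 0.30 SE at edgeR FDR 1.9e-07), and by less in endocrine-like cells (1.49 ± 0.32 SE at edgeR FDR 0.0013), which had 139 and 43.1 CPM. In acinar-like cells of primary pancreas 1, FOXP2 had 680.45 CPM in the cluster of 186 cells and 0 in that of 71. This was not particular to FOXP2, as FOXP1 had 456 and 25.1 CPM in these clusters and FOXJ3 116 and 11.9 CPM. FOXA3 went the other way, with 3.57 and 9.55 CPM. The FOXP2 call held at 3.84 at edgeR FDR 9.4e-07 with doublets kept and 4.06 at edgeR FDR 4.4e-07 at Leiden resolution 1.0. FOXP2 was not called between PPDO and ductal-like cells (edgeR log2 fold change -0.06 ± 0.14 SE at FDR 0.75). FOXP1 (ENSSSCG00000027675, chr13:52346844-52974358) was in every class and highest in ductal-like cells, with 1092 and 1329.8 CPM, in 90.4% and 95.4% of cells, while PPDO had 383 and 321 CPM, in 53.9% and 51.4% of cells, and lay lower (edgeR log2 fold change -1.32 ± 0.14 SE at FDR 0.0031).

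FOX genes of vessels and mesenchyme were found in mural-like, endothelial-like and fibroblast-like cells. FOXS1 (ENSSSCG00000033613, chr17:35523408-35537618), known from pericytes, had 102 and 129 CPM in mural-like cells (edgeR log2 difference 3.86 ± 0.28 SE at FDR 6.2e-09), 30.3 and 26.95 CPM in endothelial-like cells (1.75 ± 0.29 SE at edgeR FDR 1.3e-04) and 137 CPM in the fibroblast-like cells of primary pancreas 1. It was lower in PPDO (0.545 and 0.633 CPM) than in ductal-like cells (2.39 and 3.57 CPM, edgeR log2 fold change -1.85 ± 0.32 SE at FDR 0.012). The call was lost when PPDO 1 or PPDO 2 was left out. The share of cells with FOXS1 was 0.913% and 1.49% in ductal-like, 4.18% and 4.05% in lymphocyte-like and 0% in acinar-like cells. Whether background RNA made up the ductal-like counts was not tested. At a mean under 20 CPM in each class, and chosen after their values were seen, FOXC1 had 15.7 and 8.21 CPM in mural-like and 13.2 and 8.19 CPM in endothelial-like cells, FOXC2 had 12.7 and 13.7 CPM and 0.581 and 1.02 CPM, and FOXF1 had 6.88 and 8.21 CPM and 12.3 and 21.5 CPM. FOXC1 and FOXF1 were at most 0.797 CPM in the other tested classes, and FOXC2 was at 0. In the fibroblast-like cells of primary pancreas 1, FOXC2 had 19.8 CPM, above its mural-like values, FOXC1 had 11.7 CPM and FOXF1 had 4.23 CPM. FOXC2 and FOXF1 overlap MTHFSD in the RefSeq annotation, and 97.7% and 95% of FOXC1 and FOXC2 UMIs lay in the 3' extensions. FOXD1 and FOXL1 had 24.1 and 2.602 CPM in fibroblast-like cells of primary pancreas 1 and at most 0.487 CPM elsewhere.

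Other genes were called higher in leukocytes, endocrine-like or acinar-like cells. FOXN3 (ENSSSCG00000002429, chr7:111036492-111454106), a repressor of cell cycle genes, was highest in lymphocyte-like cells with 731 and 659 CPM (edgeR log2 difference 1.32 ± 0.26 SE at FDR 7.0e-04) and was present in all classes, from 60.4 CPM upwards. FOXN2 (ENSSSCG00000029593, chr3:92268780-92337117) had 228 and 244 CPM in myeloid-like and 161 and 161 CPM in lymphocyte-like cells (2.25 ± 0.30 SE at edgeR FDR 1.2e-05; 1.48 ± 0.32 SE at edgeR FDR 0.0019, as log2 differences). It was called higher in acinar-like cells too (2.79 ± 0.30 SE at edgeR FDR 1.7e-06), with 223 and 49.4 CPM, where its libraries lay further apart than in the leukocyte classes. Its acinar-like clusters had 331 and 7.16 CPM in primary pancreas 1, where FOXP1 and FOXJ3 were also lower in the latter cluster. The FOXN2 call held at 2.20 at edgeR FDR 2.7e-04 with doublets kept and 2.32 at edgeR FDR 3.4e-05 at Leiden resolution 1.0. FOXJ2 (ENSSSCG00000039580, chr5:63061978-63087689) rose in myeloid-like cells, with 55.5 and 35.98 CPM (edgeR log2 difference 1.65 ± 0.27 SE at FDR 1.1e-04). FOXO1 (ENSSSCG00000009370, chr11:15317222-15410059), the insulin-regulated factor of beta cells, had 220.0 and 190.1 CPM in endocrine-like cells (edgeR log2 difference 2.40 ± 0.30 SE at FDR 4.9e-06), 217 and 125 CPM in lymphocyte-like cells (0.99 ± 0.34 SE at edgeR FDR 0.030) and 49.02 and 48.8 CPM in ductal-like cells. FOXO1 also had 177 CPM in fibroblast-like cells of primary pancreas 1 and, by cluster, 181 and 202 CPM in its Schwann-like cells. In the endocrine-like cluster led by SST, GCG and PPY, of 55 and 413 cells, FOXO1 had 194 and 507 CPM. In the largest cluster led by INS, of 27 and 1048 cells, it had 179.7 and 172 CPM. In the cluster led by GRM5, with G6PC2 and SLC2A2, of 17 and 341 cells, it had 311 and 282 CPM, and the other INS cluster, with 411 cells in primary pancreas 2 and 2 in primary pancreas 1, had 98.3 CPM in the former. The order of the clusters thus differed between the libraries, and was not tested. In primary pancreas 2, FOXP1 had 540, 173, 269 and 105 CPM in these clusters as listed, and FOXJ3 had 181, 74.1, 105 and 53.7 CPM. The order there was thus not particular to FOXO1. FOXP3, the factor of regulatory T cells, had 8.49 and 3.83 CPM in lymphocyte-like cells (2.42 ± 0.78 SE at edgeR FDR 0.025) and 2.96 and 4.42 CPM in endocrine-like cells (2.35 ± 0.69 SE at edgeR FDR 0.013), where it was called higher. It had 3.41 and 8.22 CPM in myeloid-like cells and was not called there (1.89 ± 0.81 SE at edgeR FDR 0.088). Of its UMIs 66.3% lay in 3' extensions and it overlaps CCDC22, so its source is uncertain.

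Other genes were spread over all classes. FOXJ3 (RefSeq chr6:168994432-169135038) ranged over 40.8 to 224 CPM in the libraries of the 7 classes, FOXK1 over 9.93 to 46.4 CPM and FOXK2 over 4.71 to 51.7 CPM, and none of the 3 was called higher in any class. FOXK1 and FOXK2 are repressors that bind to genes of autophagy and metabolism. FOXP4 ranged over 0.996 to 41.1 CPM, lowest in endothelial-like cells with 0.996 and 1.36 CPM and called higher in mural-like cells with 24.2 and 41.1 CPM (edgeR log2 difference 1.21 ± 0.34 SE at FDR 0.012), endocrine-like cells with 20.7 and 24.6 CPM (1.79 ± 0.29 SE at edgeR FDR 9.6e-05) and acinar-like cells with 27.4 and 10.2 CPM (2.33 ± 0.33 SE at edgeR FDR 3.3e-05; 1.40 at edgeR FDR 0.0078 with doublets kept).

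Counted over the classes, 27 of the 54 genes passed the low-count filter, and each class was tested against the mean of the other 6. In endothelial-like cells 9 of 27 were higher, where 20.3% of 15755 genes were. In mural-like cells 8 were higher (17.1% of all genes), in endocrine-like cells 7 (24.2%), in ductal-like cells 6 (24.2%), in acinar-like cells 5 (14.0%), in lymphocyte-like cells 5 (17.0%) and in myeloid-like cells 3 (19.4%). A gene could have passed the filter through the class where it is high, so the counts describe the set and are no support for it. The classes of a library come from the same animal, and library was a term of the fit. The class fits were scaled with TMM and were not repeated with library size alone, so their log2 differences need not follow the CPM.

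The set was then compared between PPDO and primary ductal-like cells, the class from which PPDO are grown. Of the 54 genes, 36 passed the low-count filter of this comparison. Higher in PPDO were 8, against 22.8% of 23561 genes, and lower were 11, against 20.9% of all genes. A gene could have passed the filter through the group where it is high, so these counts describe the set and are no support for it. The median log2 fold change was -0.01 over the 36 and 0.01 over all genes. These directions depend on the scaling, because the TMM factors were 0.876 and 0.830 in PPDO and 1.08 and 1.28 in ductal-like cells. With library size alone the median over all genes moved to -0.45, 3233 genes were higher and 6982 lower in place of 5366 and 4918, and 8 and 14 of the SOX and FOX genes were called. No called SOX or FOX gene changed direction between the scalings, and FOXN3, FOXP4 and FOXA3 were added to those lower. Of the 20 genes of at least 20 CPM, SOX7 and FOXN2 were higher in PPDO, and FOXA2, SOX18, SOX5, SOX8, FOXS1, SOX6, FOXP1, SOX10 and SOX13 were lower. None of the 19 called genes had overlapping groups, and neither did several that were not called, such as FOXJ3 and FOXN3. The share over all genes was not counted, so this is no result about the set. With 2 libraries against 2, an exact permutation p cannot lie below 0.333, two-sided. The labels do not say whether the PPDO libraries are separate cultures, but the study describes 2 lines.

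**Figure D3:**
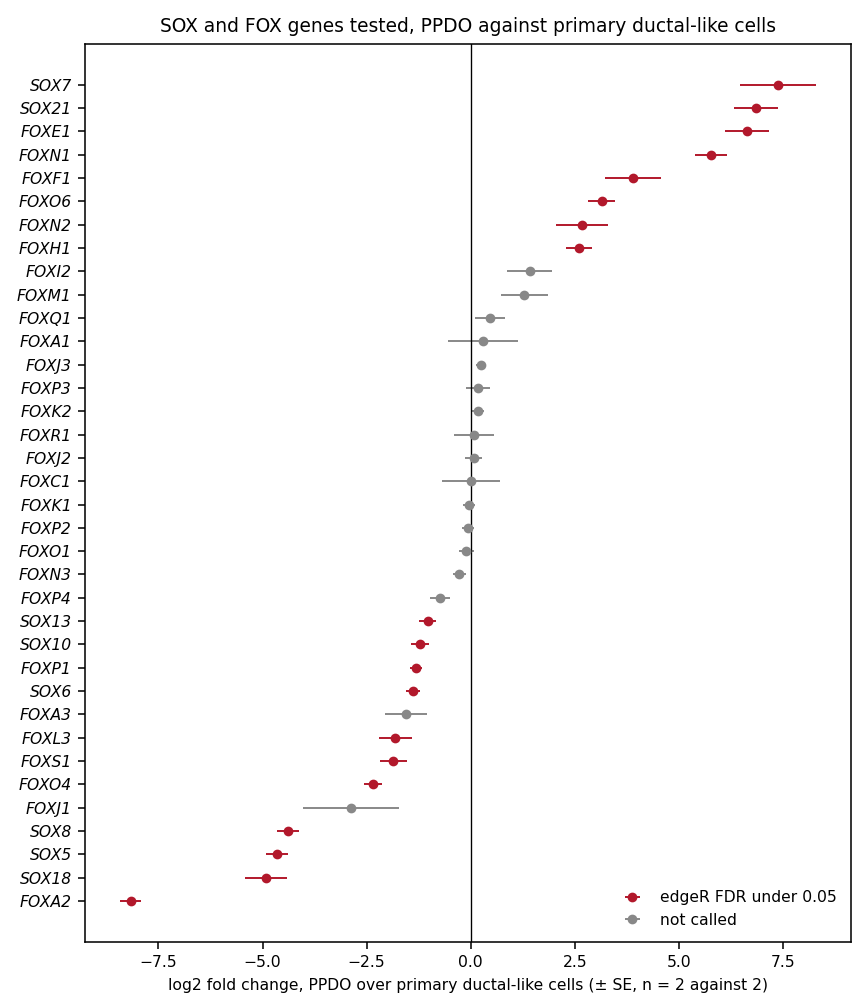
Log2 fold change of PPDO over primary ductal-like cells for the 36 SOX and FOX genes tested, with SE bars from 2 libraries against 2 and the 19 genes at an edgeR FDR under 0.05 in red. SOX7, SOX21, FOXE1 and FOXN1 stood at the top with values from 5.77 to 7.38, and FOXA2 at the bottom with -8.17.

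FOXN2 had 53.2 and 49.7 CPM in PPDO and 15.95 and 5.15 CPM in ductal-like cells (edgeR log2 fold change 2.67 ± 0.63 SE at FDR 0.027), a call that was lost when PPDO 1 or PPDO 2 was left out (edgeR FDR 0.083 and 0.083). SOX13 was called lower, and this was lost when PPDO 1 or PPDO 2 was left out (edgeR FDR 0.068 and 0.10) and with only the ductal-like PPDO cells (-0.05 at edgeR FDR 0.86). Another 8 of the 20 genes were tested and not called, and SOX17 did not pass the filter. Of these, FOXJ2, FOXJ3 and FOXK2 had log2 fold changes of 0.07, 0.25 and 0.17 with TMM but -0.38, -0.21 and -0.29 with library size alone, and none was called by either. FOXJ3 had 133 ± 1.48 CPM in PPDO and 155 ± 11.5 CPM in ductal-like cells (SD, n = 2 each), and FOXK1 and FOXK2 had 19.1 and 18.04 CPM and 26.4 and 26.2 CPM in PPDO against 24.3 and 28.5 CPM and 31.3 and 33.03 CPM. FOXO1 and FOXN3 had 30.4 and 35.6 CPM and 119 and 122 CPM in PPDO against 49.02 and 48.8 CPM and 202 and 196 CPM. FOXP4, with 8.37 and 6.38 CPM against 17.9 and 15.7 CPM, missed the threshold (edgeR log2 fold change -0.75 ± 0.24 SE at FDR 0.063) but passed it in DESeq2 (FDR 0.022), without the 3' extensions (edgeR FDR 0.038), without primary pancreas replicate 2 (edgeR FDR 0.035) and without the largest ductal-like cluster of primary pancreas 1 (edgeR FDR 0.049). FOXN3 passed without primary pancreas replicate 2 (-0.43 at edgeR FDR 0.043).

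Several rarer genes were higher in PPDO than in ductal-like cells, and those described here were chosen after their values were seen. SOX21 (ENSSSCG00000009494, chr11:63822110-63826498), a SOXB2 gene of neural and squamous epithelium, had 3.05 and 4.49 CPM in PPDO and 3 UMIs in all ductal-like cells, so that pooled CPM were 86.1 times as high with an exact 95% counting interval of 29.4 to 418. Of its UMIs 99.3% lay in the 3' extension, and the nearest genes of RefSeq lie 57390 and 262651 bases away. FOXE1 (ENSSSCG00000005369, chr1:239727769-239732461), known from thyroid and hair follicle, had 4.52 and 6.08 CPM in PPDO and 0.09103 and 0.0393 CPM in ductal-like cells (edgeR log2 fold change 6.65 ± 0.53 SE at FDR 0.0016), with 97.8% of UMIs in the extension and the nearest gene 36203 bases away. FOXN1 (ENSSSCG00000017762, chr12:44764427-44796138), the factor of thymic epithelium and of keratinocytes that leave the basal layer, had 8.08 and 9.03 CPM against 0.2503 and 0.157 CPM (edgeR log2 fold change 5.77 ± 0.39 SE at FDR 0.0011). They were found in 0.703% and 1.09%, 1.44% and 1.77% and 2.12% and 2.39% of PPDO cells, and in at most 0.837% of any tested primary class. SOX21 was found in 2.81% of the Schwann-like cells of primary pancreas 1, at 16.1 CPM, both above its values in PPDO. FOXO6, FOXH1 and FOXF1 were called higher as well, at 5.73 and 4.82 CPM, 2.46 and 2.19 CPM and 0.512 and 1.09 CPM, with FOXF1 below its 12.3 and 21.5 CPM in endothelial-like cells, and FOXO4 and FOXL3 lower, at 1.98 and 1.65 CPM and 0.106 and 0.0915 CPM. FOXO3, which is not counted in the set, had 121 and 119 CPM in PPDO and 398 and 569 CPM in ductal-like cells and was lower in PPDO (edgeR log2 fold change -1.53 ± 0.15 SE at FDR 0.0027). SOX21 could not be tested without the 3' extensions, where it did not pass the filter, and FOXF1 and FOXL3 lost the call under some settings.

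Within PPDO the genes differed between states. The 9 clusters were named by marker lists as 0 (WNT-like), 1 (basal-like), 2 and 3 (glycolysis-like), 4 (proliferating-like), 5 and 8 (cornifying-like), 6 (replicating-like) and 7 (ductal-like), and each was tested against the mean of the others, with library as a term. Cluster 8 held 34 and 87 cells at a median of 13231 UMIs, and had 0 UMIs of several genes, which lowers the mean that the other clusters were compared with. Values without it are therefore given beside the calls named, as an alternative added after the data were seen. A gene could be called higher in several clusters, as SOX6 and FOXP2 were in 5 and FOXP1 in 6 (5, 2 and 4 without cluster 8), and only those with its larger levels are given. The clusters were made from the same cells, and genes that vary with SOX and FOX genes may have shaped them. A gene could also have passed the low-count filter through the cluster where it is high, so counts of calls only describe the set.

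**Figure D4:**
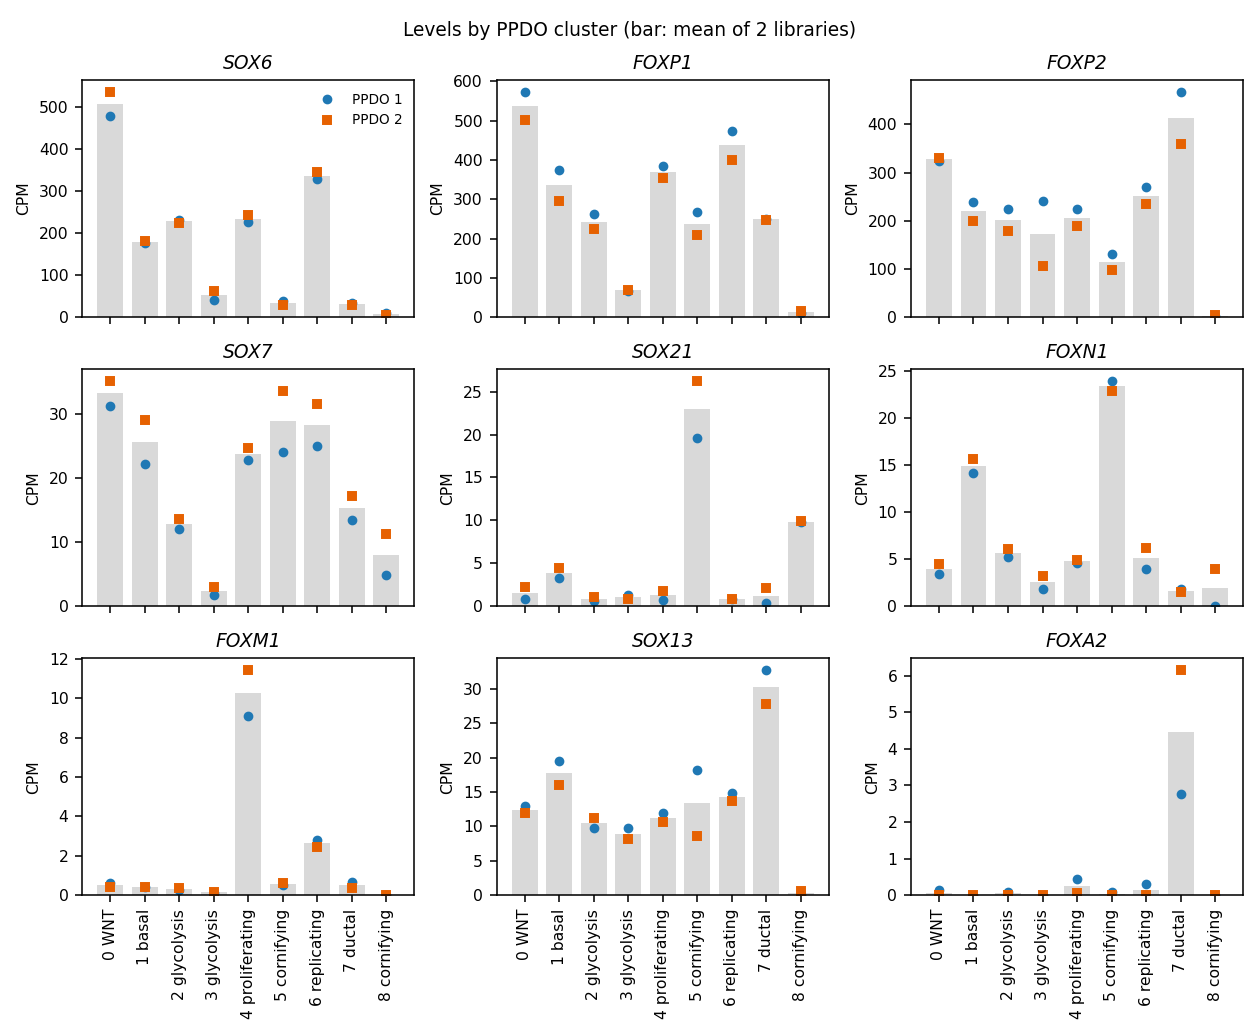
CPM of 9 SOX and FOX genes in the 9 PPDO clusters, with a point for each PPDO library and a bar for the mean of both. SOX6 and FOXP1 were highest in the WNT-like cluster, SOX21 and FOXN1 in the cornifying-like cluster 5, FOXM1 in the proliferating-like cluster, and SOX13, FOXP2 and FOXA2 in the ductal-like cluster.

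In the WNT-like cluster, led by HMCN1 and CXCL14 and with LGR6, 12 of 32 genes tested were higher, against 24.2% of 17902 genes, and 10 were without cluster 8, against 18.4%. SOX6 had 479 and 537 CPM there and 328 and 345 CPM in the replicating-like cluster. It had 37.2 and 27.9 CPM in the cornifying-like cluster 5 and 32.7 and 27.7 CPM in the ductal-like cluster. SOX6 was thus above these levels in both libraries of the WNT-like and replicating-like clusters, while the cornifying-like and ductal-like clusters overlapped. It was higher in the WNT-like cluster (edgeR log2 difference 2.47 ± 0.11 SE at FDR 1.7e-09; without cluster 8 2.06 at edgeR FDR 7.5e-08) and lower in the ductal-like cluster (-1.97 ± 0.17 SE at edgeR FDR 6.6e-07; without cluster 8 -2.46 at edgeR FDR 1.4e-07). SOX6 was found in 66.1% and 69.96% of WNT-like and 6.56% and 4.91% of ductal-like PPDO cells. FOXP1 had 574 and 501 CPM in the WNT-like cluster (edgeR log2 difference 1.33 ± 0.07 SE at FDR 1.9e-08; without cluster 8 0.95 at edgeR FDR 6.8e-07) and 66.8 and 69.6 CPM in the glycolysis-like cluster 3, at a median of 20430.5 UMIs per cell. SOX7 was called higher in 5 of the 9 clusters, and in the same 5 without cluster 8. Its differences were largest in the WNT-like cluster, with 31.2 and 35.2 CPM (0.88 ± 0.10 SE at edgeR FDR 8.9e-06; without cluster 8 0.92 at edgeR FDR 1.1e-05) and in the cornifying-like cluster 5, with 24.1 and 33.6 CPM (1.01 ± 0.10 SE at edgeR FDR 2.1e-06; without cluster 8 1.03 at edgeR FDR 2.1e-06). It had 1.67 and 2.95 CPM in cluster 3. SOX7 was measured in all 9 clusters, at 1.67 CPM or more.

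SOX21 and FOXN1 were highest in the cornifying-like cluster 5. In cluster 5, with SPINK5, DSG1 and KLK7 among its leading genes, known from upper epidermal layers, 11 of 32 genes were higher against 22.5% of all genes, and 7 were without cluster 8, against 21.2%. SOX21 had 19.6 and 26.3 CPM there (edgeR log2 difference 3.84 ± 0.19 SE at FDR 9.5e-10; without cluster 8 4.31 at edgeR FDR 6.3e-09), 9.81 and 9.87 CPM in cluster 8 (3.30 ± 0.63 SE at edgeR FDR 6.4e-04), 3.27 and 4.47 CPM in the basal-like cluster, and at most 2.28 CPM in any library of the other clusters. FOXN1 had 23.96 and 22.8 CPM in cluster 5 (edgeR log2 difference 2.54 ± 0.13 SE at FDR 1.2e-09; without cluster 8 2.59 at edgeR FDR 2.6e-09) and 14.1 and 15.6 CPM in the basal-like cluster. It had 0 and 3.95 CPM in cluster 8, where it was not called (0.18 ± 0.57 SE at edgeR FDR 0.81). It had 3.42 and 4.51 CPM in the WNT-like and 1.78 and 1.495 CPM in the ductal-like cluster. In cluster 5, 4.26% and 6.17% of cells had SOX21 and 8.33% and 7.44% had FOXN1. In the basal-like cluster, led by MMP3, 12 of 32 genes were higher, against 11.3% of all genes, and 5 were without cluster 8, against 5.36%. FOXN1 was among both counts (1.62 ± 0.13 SE at edgeR FDR 7.5e-06; without cluster 8 1.66 at edgeR FDR 1.3e-05).

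FOXM1 followed the cell cycle clusters. It had 9.08 and 11.5 CPM in the proliferating-like cluster, led by CENPF and TOP2A (edgeR log2 difference 5.04 ± 0.22 SE at FDR 5.8e-10; without cluster 8 4.16 at edgeR FDR 1.1e-09), 2.81 and 2.45 CPM in the replicating-like cluster, led by DTL (2.85 ± 0.37 SE at edgeR FDR 4.3e-05; without cluster 8 1.95 at edgeR FDR 3.4e-05), and at most 0.666 CPM in the libraries of the other clusters. FOXS1 had 3.14 and 3.08 CPM in the proliferating-like cluster (3.60 ± 0.33 SE at edgeR FDR 1.7e-06; without cluster 8 2.75 at edgeR FDR 1.4e-06) and 0.452 and 0.579 CPM in the WNT-like cluster. In all, 10 of 32 genes were higher in the proliferating-like cluster (22.0% of all genes) and 12 in the replicating-like cluster (23.0%). Without cluster 8 these were 7 (18.1% of all genes) and 10 (20%). FOXM1 over all PPDO cells was not called against ductal-like cells (edgeR log2 fold change 1.29 ± 0.57 SE at FDR 0.13), at 1.096 and 1.43 CPM against 0.956 and 0.393 CPM.

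In the ductal-like PPDO cluster of 246 and 163 cells, led by SPP1 and WFDC2, 12 of 32 genes were higher, against 17.4% of all genes, and 10 were without cluster 8, against 15.3%. FOXA2 had 2.77 and 6.17 CPM, 25 and 33 UMIs, against at most 0.4401 CPM in the others (edgeR log2 difference 7.06 ± 0.84 SE at FDR 3.6e-05; without cluster 8 6.69 at edgeR FDR 5.5e-05). This remained far below the 60.9 and 65.9 CPM of primary ductal-like cells (-3.59 at edgeR FDR 0.0029 for ductal-like PPDO cells against ductal-like primary cells). SOX13 had 32.8 and 27.8 CPM (1.66 ± 0.19 SE at edgeR FDR 8.7e-06; without cluster 8 1.22 at edgeR FDR 8.3e-05) and FOXP2 had 468 and 360.1 CPM (1.53 ± 0.17 SE at edgeR FDR 5.4e-06; without cluster 8 0.95 at edgeR FDR 7.5e-04). FOXA1 and FOXQ1 were called higher at 3.66 and 2.803 CPM and 1.55 and 1.68 CPM, also without cluster 8 (1.31 at edgeR FDR 0.0082, and 1.94 at edgeR FDR 0.0041). SOX6 went the other way, and ductal-like PPDO cells lay further below primary ductal-like cells in SOX6 (-4.65 at edgeR FDR 6.4e-04) than all PPDO cells did. SOX5 and SOX8, at 8.43 and 21.7 CPM and 0.333 and 1.12 CPM in this cluster, also lay below primary ductal-like cells (-4.25 at edgeR FDR 0.0040, and -4.66 at edgeR FDR 0.0029).

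Other genes of the pathways in which these factors act were taken from lists and compared in the same fit. Of the pancreatic regulators there were 0 higher and 13 lower of 15 tested, median log2 fold change -2.88, with HNF4A (0.538 and 0.595 CPM in PPDO, 29.7 and 32.99 CPM in ductal-like cells, edgeR log2 fold change -5.33 at FDR 4.1e-04) as an example. Of the squamous regulators there were 8 higher and 2 lower of 12 tested, median log2 fold change 3.56, with TP63 (554 and 587 CPM in PPDO, 0.273 and 0.511 CPM in ductal-like cells, edgeR log2 fold change 11.04 at FDR 3.3e-04), the master factor of stratified epithelium, and OVOL2 (3.08 and 1.98 CPM in PPDO, 25.9 and 43.9 CPM in ductal-like cells, edgeR log2 fold change -3.31 at FDR 0.0024) in opposite directions. Of the endothelial regulators there were 1 higher and 4 lower of 12 tested, median log2 fold change -1.05, with TAL1 (0.0133 and 0.00762 CPM in PPDO, 0.364 and 0.314 CPM in ductal-like cells, edgeR log2 fold change -4.48 at FDR 0.0036), which was near 0 in both groups, and PROX1 (0.342 and 0.141 CPM in PPDO, 293 and 330.4 CPM in ductal-like cells, edgeR log2 fold change -9.87 at FDR 7.4e-04), a gene that duct cells also express. GATA2 was the gene called higher (3.57 and 2.84 CPM in PPDO, 0.523 and 0.0393 CPM in ductal-like cells, edgeR log2 fold change 3.76 at FDR 0.031). FOXM1 partners and mitotic targets had 6 higher and 1 lower of 13 tested, median log2 fold change 1.68, with CDK1 (11.6 and 17.3 CPM in PPDO, 3.3 and 1.296 CPM in ductal-like cells, edgeR log2 fold change 3.04 at FDR 0.016). LIN52 was the gene called lower (9.87 and 10.9 CPM in PPDO, 23.8 and 29.7 CPM in ductal-like cells, edgeR log2 fold change -0.89 at FDR 0.014). FOXO regulators and targets had 1 higher and 5 lower of 12 tested, median log2 fold change -0.73, with SESN1 (44.3 and 40.6 CPM in PPDO, 261 and 543 CPM in ductal-like cells, edgeR log2 fold change -2.75 at FDR 0.0036) and CCNG2 (91.1 and 149.6 CPM in PPDO, 34.4 and 30.7 CPM in ductal-like cells, edgeR log2 fold change 2.34 at FDR 0.0064). Genes of ciliogenesis had 1 higher and 4 lower of 7 tested, median log2 fold change -0.59, with DNAH5 (0.399 and 0.313 CPM in PPDO, 19.96 and 32.2 CPM in ductal-like cells, edgeR log2 fold change -5.71 at FDR 6.6e-04). RFX2 was the gene called higher (103 and 95.2 CPM in PPDO, 9.31 and 3.89 CPM in ductal-like cells, edgeR log2 fold change 4.31 at FDR 0.0049). FOXJ1, the factor of motile cilia, had 5.64 and 0.589 CPM in ductal-like cells and 0.452 and 0.217 CPM in PPDO and was not called (edgeR log2 fold change -2.88 ± 1.15 SE at FDR 0.11). For all genes tested the median was 0.01, and 22.8% were higher and 20.9% lower.

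The remaining genes were rare. FOXD2, FOXF2 and FOXR2 had 2 to 5 UMIs in all cells kept. FOXB1, FOXI1, FOXI2, FOXI3, FOXL2, FOXR1, SOX14 and SOX30 had 12 to 220 UMIs. Among these, FOXB1 had 1.77 and 0.515 CPM in endocrine-like cells, with 0 UMIs in PPDO and in ductal-like cells, and SOX14 had 53 and 7 UMIs in PPDO 1 and 2 and 0 in ductal-like cells. Over both PPDO libraries this was at least 2.46-fold higher against 3 UMIs over the ductal-like cells, a bound that rests on PPDO 1, since 0.0267 CPM in PPDO 2 lay below that floor. Counting intervals and floors cover counting error only.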

How the data were processed

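Single-cell libraries were made with 10x Chromium 3' v3.1 chemistry from 2 PPDO lines and 2 pancreata. The authors deposited UMI counts for each library, made with Cell Ranger 7.1.0 (per the file headers and the methods) against their own pig annotation and before ambient RNA correction with SoupX. Sscrofa11.1 and GRCh38 are the builds named in the submitters' processing notes, without their roles. Features of a gene, which include 3' extensions, were summed. Positions and neighbouring genes are from RefSeq on Sscrofa11.1, for 53 of the 54 genes, and are not coordinates of the annotation used for counting.

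Cells were kept by the study's filters but for 1 floor: at most 3% mitochondrial UMIs and 1000 to 9000 features in PPDO, and under 8% and 9000 in primary pancreas, with over 400 features in library 1 and over 800 features and 3000 UMIs in library 2. The study set a floor of 600 features for 1 PPDO line and 1000 for the other. As the labels tie neither library to a line, 1000 was used for both and 600 for both as an alternative. Scrublet scores over 0.25 and 0.15 removed 84 and 141 primary cells, and none were removed from PPDO. Clustering used Scanpy 1.11.5 and leidenalg 0.10.2 (2000 variable genes without SOX and FOX genes, 20 components, 15 neighbours, resolution 0.5). A primary cluster was named from at least 5 markers raised 2-fold, and a PPDO cluster from at least 3 raised 1.25-fold, in at least 10% of its cells. These naming thresholds were set after the clusters were seen.

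Counts were summed per library and class, and tested with edgeR 4.0.16 (R 4.3.3), quasi-likelihood with TMM factors and Benjamini-Hochberg FDR under 0.05, with DESeq2 1.42.0 as an alternative. A class or cluster was compared with the mean of the others, with library as a term. With 2 libraries a group, p-values of PPDO against ductal-like cells set the difference against the spread between libraries. This spread is estimated with the help of all genes. The p-values of classes and clusters set their differences against how these vary from library to library, since library was a term. The scripts were tested on simulated data. Genes with a mean of at least 20 CPM in PPDO or in a primary class present in both libraries are described in full. Up to 8 called in each direction have full statistics. The genes and lists were chosen with earlier results of these data known. Other alternatives were the low-count filter, doublets, cell filters, clustering resolution, 3' extensions, depth, replicate block and leaving out each library. Scaling without TMM, leaving out the largest ductal-like cluster of primary pancreas 1 and leaving out cluster 8 were added after the data were seen. Human and bulk data of the study are not analysed here, and some single genes are not reported here.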

Additional observations from a re-analysis of the deposited data

Results flagged for a closer look

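An unnamed cluster of primary pancreas 2, which entered no comparison, held FOXP2. The cluster had 342 cells at a median of 4042 UMIs, was led by SPHKAP and EXTL1, and had too few markers of any class to be named. FOXP2 had 611 CPM there (1006 UMIs), against 383 CPM in all ductal-like cells of the same library, the highest of its tested classes, and 454 CPM in the acinar-like cells of primary pancreas 1. Single named clusters had more than the unnamed cluster, with 823 CPM in a ductal-like cluster of 64 cells and 657 CPM in one of 17 cells in the same library, and 680.45 CPM in an acinar-like cluster of 186 cells in primary pancreas 1. The 7 fibroblast-like cells of primary pancreas 2 had 624 CPM (43 UMIs). The source of the cells of the unnamed cluster was not tested.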

How the results depend on the processing

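Between PPDO and ductal-like cells 19 of the 36 SOX and FOX genes tested were called, and over all genes 10284 of 23561. With a library left out, 1 group held a single library, so counts of calls are not compared. The replicate block gave 18 calls, and over all genes 8443 in place of 10284. Deviations of same-numbered libraries had r = -0.01 over 23561 genes, so the numbers were not taken to pair the libraries. Over all genes 6850 of 17060 were called with only ductal-like PPDO cells. No called gene reversed. Genes not called in either fit changed sign as follows. With library size alone FOXJ2 was -0.38, FOXJ3 -0.21 and FOXK2 -0.29. With only ductal-like PPDO cells FOXJ2 was -0.10, FOXJ3 -0.045, FOXK2 -0.30 and FOXP2 0.57. Without a low-count filter FOXK1 was 0.026 and FOXP2 0.0073, and in thinned sums FOXJ2 was -0.078. When each library was left out in turn, FOXJ2 ranged from -0.082 to 0.17, FOXO1 from -0.28 to 0.027 and FOXP2 from -0.17 to 0.027. Calls higher in a PPDO cluster numbered 88 over 9 clusters (30.6% of tests of these genes, 20.3% of tests of all genes), 148 over the 18 clusters of Leiden resolution 1.0 (25.7% and 20.2%) and 61 without cluster 8 (23.8% and 17.3%). Calls higher in a primary class numbered 43 (22.8% and 19.5%), and from 37 without the 3' extensions (22.0% and 19.8%) to 55 without a low-count filter (15.4% and 12.9%). With a library left out, the class and cluster comparisons had no residual degrees of freedom and were not run. Genes found in at least 5% of cells of a class numbered 21, 31 without thinning and 14 at 1000 UMIs.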
